A study of Mus musculus with 12 samples.

Results

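The response of mouse embryonic fibroblasts to interferon-gamma in the presence of AMN107 was read from 4 of the 12 arrays of the series: 2 arrays of cells given AMN107 and interferon-gamma (AMN107-IFNg) and 2 arrays of cells given AMN107 without interferon (AMN107). AMN107 is nilotinib, a kinase inhibitor made against ABL. Every probe set with 1 annotated gene was eligible, and 12188 genes were measured brightly enough to be tested, each through its brightest probe set. The AMN107-IFNg cells were treated with AMN107 and then stimulated with interferon-gamma for 6 h, whereas the AMN107 cells had the inhibitor alone, so both groups carried it. The other groups used here were AMN107 with interferon-alpha for 6 h (AMN107-IFNa), interferon-gamma for 6 h without the inhibitor (IFNg) and the vehicle alone (DMSO), with 2 arrays each. All cells were grown in Dulbecco's modified Eagle's medium with heat-inactivated fetal bovine serum. The labels name no genotype and give neither the dose nor the duration of AMN107, nor the dose of interferon, nor whether the 2 arrays of a group came from separate embryos. The titles number them as biological repeats, and the p-values below measure only the spread between such arrays.

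Interferon-gamma binds a receptor made of the IFNGR1 and IFNGR2 chains, which signals through the associated kinases JAK1 and JAK2. This signalling acts on target promoters that hold the GAS element, and the early target IRF1, with other IRF proteins, binds the ISRE element of a later set. In fibroblasts the cytokine is known for inducing guanylate-binding proteins and immunity-related GTPases, which attack vacuoles that hold intracellular pathogens, for raising antigen presentation on MHC class I molecules, and for the secretion of chemokines that draw T cells.

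Promoter sequences of 7 genes that rose are printed first because they carry the elements through which this pathway is known to work. They are the last 200 bases of the RefSeq windows (GRCm38.p6), which run from 250 bases before to 50 bases after the annotated start, and are given 5′ to 3′ on the strand of the gene. Capitals mark GAS matches (TTCNNNGAA, a palindrome) in Irf1 at chr11:53769814-53770013 (+), Irf8 at chr8:120736158-120736357 (+) and Socs3 at chr11:117969367-117969566 (-). Capitals mark GAS and ISRE core matches (GAAANNGAAA, or TTTCNNTTTC on the other strand) in Gbp7 at chr3:142530136-142530335 (+) and Igtp at chr11:58199356-58199555 (+). Socs3 was added after its values were seen. Capitals mark ISRE core matches alone in Gbp2 at chr3:142620463-142620662 (+) and Ifit3 at chr19:34583329-34583528 (+).
Irf1: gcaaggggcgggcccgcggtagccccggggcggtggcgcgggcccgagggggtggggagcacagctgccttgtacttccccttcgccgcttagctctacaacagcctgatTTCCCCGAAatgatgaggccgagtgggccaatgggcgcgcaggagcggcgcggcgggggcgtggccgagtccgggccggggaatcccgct
Irf8: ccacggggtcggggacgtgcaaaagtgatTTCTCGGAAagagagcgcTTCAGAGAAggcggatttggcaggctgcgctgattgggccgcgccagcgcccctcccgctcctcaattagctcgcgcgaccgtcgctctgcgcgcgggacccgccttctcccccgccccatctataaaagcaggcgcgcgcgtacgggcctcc
Socs3: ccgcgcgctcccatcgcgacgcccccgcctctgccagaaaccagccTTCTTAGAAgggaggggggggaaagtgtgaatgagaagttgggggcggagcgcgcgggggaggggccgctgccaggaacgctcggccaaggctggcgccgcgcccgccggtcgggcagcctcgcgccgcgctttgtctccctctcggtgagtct
Gbp7: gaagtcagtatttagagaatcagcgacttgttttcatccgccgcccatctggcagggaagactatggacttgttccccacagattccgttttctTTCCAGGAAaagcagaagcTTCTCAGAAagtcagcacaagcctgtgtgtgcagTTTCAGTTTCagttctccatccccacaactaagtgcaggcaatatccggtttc
Igtp: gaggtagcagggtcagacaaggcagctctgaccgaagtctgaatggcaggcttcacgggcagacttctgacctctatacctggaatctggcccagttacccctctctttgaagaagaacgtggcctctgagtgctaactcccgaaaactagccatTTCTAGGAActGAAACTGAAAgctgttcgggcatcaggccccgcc
Gbp2: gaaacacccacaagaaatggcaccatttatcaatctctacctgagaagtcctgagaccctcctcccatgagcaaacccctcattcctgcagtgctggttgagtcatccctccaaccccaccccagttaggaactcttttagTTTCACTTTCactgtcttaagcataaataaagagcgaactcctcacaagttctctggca
Ifit3: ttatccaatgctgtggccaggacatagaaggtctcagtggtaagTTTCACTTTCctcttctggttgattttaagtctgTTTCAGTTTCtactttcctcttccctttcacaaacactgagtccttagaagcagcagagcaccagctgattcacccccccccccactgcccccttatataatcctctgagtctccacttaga

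Of the 108 genes that rose by 2-fold or more, 82 had such a window, and several had more than 1 start, which gave 104 windows of 300 bases. The ISRE core was found in 25 of these (24%), against 2.84% of the 12570 windows of all tested genes and 3.44% of all 32851 windows. GAS letters were found in 11 of them (10.6%), against 6.7% of the windows of tested genes and 8.3% of all windows. Both elements together occurred in 4 windows, among them the printed windows of Gbp7 and Igtp. No match to either set of letters was found for Cxcl9, Ifi47, Tubb3, Cd274 and Casp4, and a gene without a window could give none. A match describes letters in a window and is not evidence of binding, and the shares were not tested.

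The 4 arrays were alike in the measures of RNA quality on the array. The ratio of the 5′ to the 3′ probe sets of Gapdh was 1.14 and 1.16 on the AMN107-IFNg arrays and 1.16 on both AMN107 arrays. That of actin was 0.805 and 0.801 on the AMN107-IFNg arrays and 0.817 and 0.819 on the AMN107 arrays. Replicates differed with an SD of 0.13 on the log2 scale in both groups. Of 15 fibroblast markers, 9 were above the array median on all 4 arrays and 5 below it on all 4. The summed signal of the 15 ran between 7403 and 7544 in AMN107-IFNg and between 7304 and 7330 in AMN107. Of 18 leukocyte markers, 11 were below the median on all 4 arrays and 5 above it. Their sums ran between 417 and 433 in AMN107-IFNg and between 473 and 490 in AMN107. Of 11 endothelial markers 7 were below it and 4 above, and of 10 epithelial markers 8 were below it and 1 above. Ptprc, the pan-leukocyte CD45 gene, had signals between 4.46 and 4.55 in AMN107-IFNg and between 4.06 and 4.38 in AMN107. In bulk RNA, fewer cells of a kind and less RNA per cell cannot be told apart.

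Interferon-gamma raised many genes in AMN107-treated fibroblasts and lowered fewer, by smaller amounts. With limma and Benjamini-Hochberg adjustment over all tested genes at 0.05, 874 genes (7.17%) differed between AMN107-IFNg and AMN107. Of these, 586 (4.81%) rose and 288 (2.36%) fell, and the median log2 difference over all genes was -0.03. A rise of at least 2-fold was called for 108 genes (0.886%), while limma called 0 genes with a fall that large. The lowest difference of any called gene was -0.69. At an unadjusted p under 0.05, limma counted 2348 genes. Of the 108, 36 reached a log2 difference of 2. Fold changes are ratios of signal plus an added constant of 8.663, and so understate the change of dim genes: 14 of the 108 were below the array median on both AMN107 arrays.

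The counts of small changes depended on which arrays entered the fit, which held the 10 arrays of 5 groups. A fit of the 4 arrays alone called 1331 genes, and one of all 12 arrays, among them an interferon-alpha array without most of its 5′ signal, called 316. Leaving out AMN107-IFNg replicate 1 gave 542 calls, AMN107-IFNg replicate 2 gave 499, AMN107 replicate 1 gave 478 and AMN107 replicate 2 gave 572. The number of rises of 2-fold or more stayed between 101 and 124 when any array was left out. Just inside that line stood Abhd3 (1.01) and Acod1 (1.0), and just outside it Serpinb9 and C1ra (both 1.0 after rounding).

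**Figure D1:**
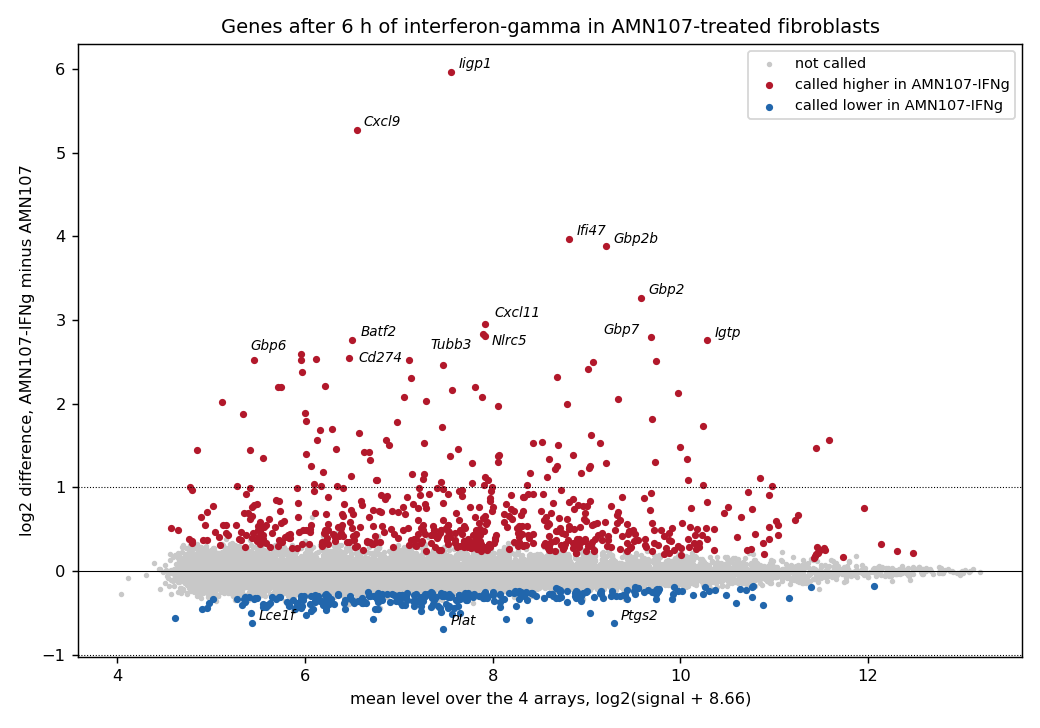
Log2 difference between AMN107-IFNg and AMN107 (vertical axis) against the mean level over the 4 arrays, log2(signal + 8.663) (horizontal axis). Each point is 1 of 12188 genes, red where called higher and blue where called lower, and dotted lines mark 2-fold. The 108 genes above the upper line reach 5.96 (Iigp1), while the lowest called gene, Plat, stands at -0.69.

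The largest rise was that of an immunity-related GTPase. Iigp1, which encodes the effector GTPase Irga6, had signals of 1485 and 1466 in AMN107-IFNg, against 15.5 and 14.8 in AMN107. Its signal rose 62.4-fold (log2 5.96 ± 0.08 SE, limma adjusted p = 1.27e-17). Ifi47, the related GTPase Irgd, gave 1780 and 1770 in AMN107-IFNg and 89.9 and 123 in AMN107, a 15.6-fold rise. Igtp, the regulatory member Irgm3, gave 3294 and 3194 in AMN107-IFNg and 426 and 524 in AMN107, a 6.76-fold rise. Of the 7 tested genes of this family, 6 rose, with a median log2 difference of 2.32. This count and those of the lists below stand beside 4.81% of all genes called higher and 2.36% called lower. A gene could pass the brightness filter through interferon-treated arrays alone, while members that did not pass were left out. This favours rises in the counts. Both AMN107 arrays were below the array median for 2 of these 7 genes and for 1 of the 5 tested guanylate-binding proteins. Irgm2 (2.32) and Irgm1 (2.12), regulatory members that protect the cell's own membranes, stood close to each other. Irgc1, a member known from testis, had a log2 difference of -0.05 and was not called.

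All 5 tested guanylate-binding proteins rose, with a median log2 difference of 2.79. Gbp2b, the gene formerly called Gbp1, had signals of 2327 and 2216 in AMN107-IFNg and 130.2 and 164 in AMN107, a 14.7-fold rise (log2 3.88 ± 0.10 SE, limma adjusted p = 1.25e-13). Gbp2, which coats the vacuole of Toxoplasma in mouse cells, had 2291 and 2452 in AMN107-IFNg and 197 and 289 in AMN107, a 9.62-fold rise. Gbp7 had 2001 and 2337 in AMN107-IFNg and 279.6 and 331 in AMN107, a 6.93-fold rise. Gbp6 differed by 2.60 and Gbp3 by 1.74 on the log2 scale. The AMN107 arrays were already well above the median signal for every one of these genes except Gbp6, where they read 16.6 and 16.5. Gbp2, Gbp7, Gbp6 and Iigp1 each had a further probe set, with log2 differences of 3.47 for Gbp2, 3.09 for Gbp7, 2.83 for Gbp6 and 5.59 for Iigp1. Members of both GTPase families are close in sequence, so a probe set named for 1 of them may hold signal of another.

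**Figure D2:**
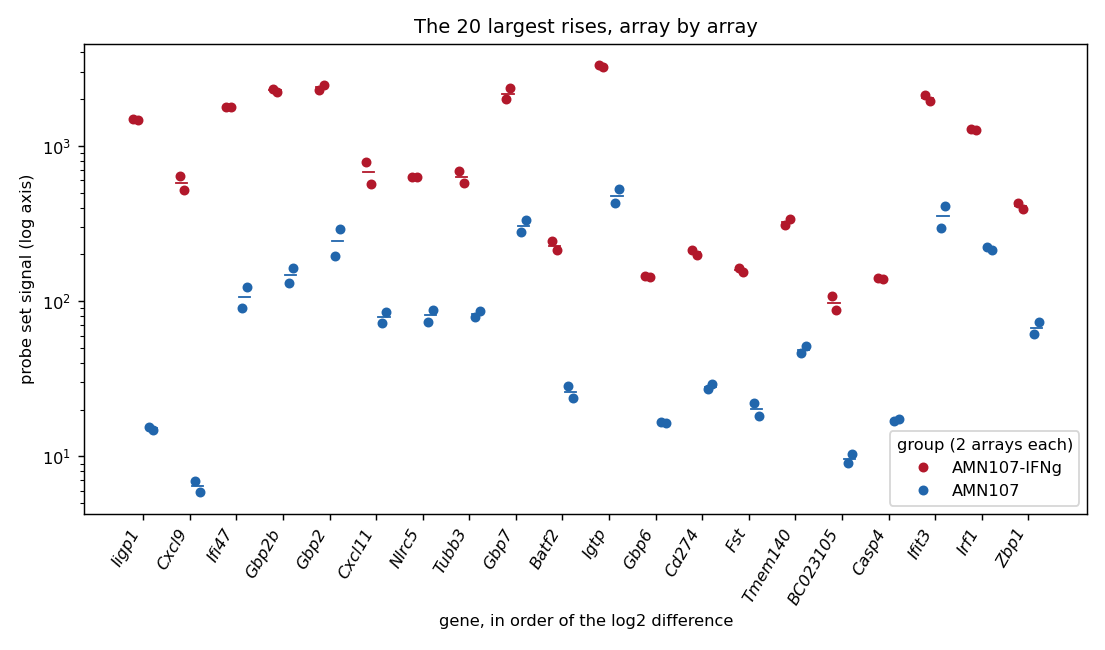
Probe set signal (log axis) of the 20 genes with the largest called rise, in order of the log2 difference. Points are arrays, red for AMN107-IFNg and blue for AMN107, 2 per group, and short lines are group means. The genes were picked among called genes whose groups did not overlap, so the separation of the arrays was set by that choice. Signals run from Iigp1 (1485 and 1466 against 15.5 and 14.8) to Zbp1 (425 and 392 against 61.1 and 73.7).

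Most tested transcription factors of the interferon network rose: 16 of 22 were called higher and 0 lower, with a median of 0.58. Irf1, the early target whose GAS match is printed above, had signals of 1288 and 1255 in AMN107-IFNg and 222 and 213 in AMN107, a 5.66-fold rise (log2 2.50 ± 0.08 SE, limma adjusted p = 1.05e-12). Nlrc5, the transactivator of MHC class I genes, had 629.5 and 626 in AMN107-IFNg and 73.8 and 87.9 in AMN107, a 7.13-fold rise. Both genes were several times brighter in AMN107-IFNg. Batf2, a partner of IRF1 in macrophages, had 244 and 212 in AMN107-IFNg and 28.5 and 23.7 in AMN107. Irf8, whose window holds a pair of GAS matches, had 105 and 107 in AMN107-IFNg and 15.3 and 17.5 in AMN107, a 4.58-fold rise, and its other probe set gave a log2 difference of 1.35. Trafd1 (1.97), an inhibitor of Toll-like receptor signalling, and Sp100 (1.57), a nuclear body protein, followed. A second Sp100 probe set (0.24) was not called. Irf2 (0.92), an antagonist of IRF1, and Irf7 (0.78), the master regulator of interferon-alpha genes, rose less. Ciita, the transactivator of MHC class II genes, was too dim to be tested, with 16.1 and 16.4 in AMN107-IFNg and 15.8 and 15.7 in AMN107.

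Genes of the receptor and its kinases mostly had small differences. Among 15 tested genes of receptor and JAK-STAT signalling, 5 rose and 0 fell, with a median of 0.09. Stat3, the factor used by interleukin-6 receptors, had 310.4 and 329 in AMN107-IFNg and 104 and 119 in AMN107, a 2.74-fold rise, with 1.29 in a second probe set and 0.12, not called, in another. Stat2, the STAT of the interferon-alpha pathway, had 148 and 161 in AMN107-IFNg and 47.6 and 66.8 in AMN107, a 2.51-fold rise. These were the members past 2-fold, while Ifnar2, a chain of the interferon-alpha receptor, rose by 0.77, Jak2 by 0.59 and Irf9 by 0.34 on the log2 scale. The call of Irf9 was lost without AMN107-IFNg replicate 1, AMN107-IFNg replicate 2 or AMN107 replicate 1 (limma adjusted p between 0.0617 and 0.148). The interferon-gamma receptor chains were not called: Ifngr1 had 113 and 106 in AMN107-IFNg and 125 and 114 in AMN107. Ifngr2 had 262 and 230.2 in AMN107-IFNg and 292 and 291 in AMN107.

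Of 11 tested feedback inhibitors 5 rose and 0 fell, with a median of 0.20. Some genes, such as Usp18, are in more than 1 list. Socs3, which blocks cytokine receptor kinases, had 247 and 286 in AMN107-IFNg and 55.3 and 56.7 in AMN107, a 4.24-fold rise, and its other probe sets gave 1.13 and 2.17. Socs1, the main inhibitor of JAK kinases after interferon-gamma, rose by 0.91, with 147 and 144 in AMN107-IFNg and 74.6 and 72.5 in AMN107. Parp14, an ADP-ribosyltransferase, rose by 2.41, and Trim30a, an inhibitor of NF-kappaB signalling, by 2.07. Usp18, which removes ISG15 and blocks the interferon-alpha receptor, was bright in both groups, at 1884 and 1688 in AMN107-IFNg and 986 and 1232 in AMN107, and rose by 0.69.

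Most tested genes of MHC class I presentation rose, and no tested class II gene was called higher. Of 13 tested class I and peptide-loading genes, 9 rose and 0 fell, with a median of 0.38. Tap1, a subunit of the peptide transporter, had 478 and 468 in AMN107-IFNg and 88.6 and 104 in AMN107, a 4.6-fold rise (log2 2.20 ± 0.09 SE, limma adjusted p = 3.36e-11). Its partner Tap2 rose by 1.19, the peptide editors Tapbpl by 1.53 and Tapbp by 1.09. The heavy chain H2-K1 had 4039 and 3904 in AMN107-IFNg and 3456 and 3566 in AMN107, and was not called (log2 0.18, limma adjusted p = 0.064). Of its other probe sets, 0.28 and 0.25 were called higher (limma adjusted p = 0.0469 and 0.0419) and 0.23 was not. B2m, the light chain, had 6074 and 6205 in AMN107-IFNg and 5106 and 5472 in AMN107 and rose by 0.22, while H2-D1, another heavy chain gene, rose by 0.25. The other probe set of B2m gave 0.31 (limma adjusted p = 0.00463). Of 6 other probe sets of H2-D1, those at 0.57 and 0.48 were called (limma adjusted p = 0.00147 and 0.0163), and the other 4, between -0.04 and 0.21, were not. The calls of the brightest probe sets of B2m and H2-D1 were lost in fits without certain single arrays, AMN107 replicate 1 in both cases, AMN107-IFNg replicate 2 for B2m and AMN107-IFNg replicate 1 for H2-D1 (limma adjusted p between 0.0948 and 0.162). Class I heavy chain genes resemble each other, and their probe sets may hold signal of several.

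The immunoproteasome carries inducible catalytic subunits in place of those of the standard proteasome. Of 5 tested genes 4 rose, with a median of 0.75, while none of 5 constitutive counterparts was called (median -0.04). Psmb9 had 419 and 366 in AMN107-IFNg and 65.5 and 99.5 in AMN107, a 4.47-fold rise. Psmb10 had 1789 and 1606 in AMN107-IFNg and 565 and 643 in AMN107, a 2.79-fold rise, and the activator subunit Psme1 rose by 0.75. Psmb8, dim on all 4 arrays, was not tested and read 20.7 and 19.4 in AMN107-IFNg and 17.2 and 11.8 in AMN107. Of 5 tested class II genes, 0 rose and 1 fell, the thiol reductase gene Ifi30 (-0.27), whose call was lost without AMN107 replicate 1 or AMN107-IFNg replicate 2 (limma adjusted p 0.0594 to 0.0901). Most class II genes of the list, H2-Aa and H2-Ab1 among them, stayed below the filter.

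Chemokines that bind CXCR3, the receptor of activated T cells, stood among the most changed genes. Cxcl9 had 634 and 517 in AMN107-IFNg, against 6.99 and 5.87 in AMN107. It rose 38.5-fold (log2 5.27 ± 0.12 SE, limma adjusted p = 3.03e-14), a ratio that depends on the added constant because both AMN107 signals were below it: the log2 difference was 3.89 with a constant 4 times as large and 6.27 with a constant of 1. Cxcl11 had 781 and 567 in AMN107-IFNg and 72 and 85.6 in AMN107, a 7.73-fold rise. Cxcl10 was bright in both groups, with 5135 and 5360 in AMN107-IFNg and 1617 and 1935 in AMN107, a 2.96-fold rise. In all 3 ligands the AMN107-IFNg arrays lay far above the AMN107 arrays. Over the list of chemokines and cytokines, 13 of 22 tested genes rose and 0 fell (median 0.50). Cx3cl1, or fractalkine, rose by 1.06 in its brightest probe set, and its 2 other probe sets (0.33 and 0.26) were not called. Ccl2, which attracts monocytes, rose by 0.82 and Il18bp, a decoy for interleukin-18, by 0.95. Ccl5 was not called, with 2815 and 2723 in AMN107-IFNg and 2595 and 2857 in AMN107.

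Antiviral effectors, many of them textbook targets of interferon-alpha, made up the longest list. Of 43 tested genes 36 rose and 0 fell, with a median of 0.91. Ifit3, one of the tetratricopeptide proteins that bind viral RNA, had 2125 and 1953 in AMN107-IFNg and 297 and 411 in AMN107, a 5.71-fold rise (log2 2.51 ± 0.11 SE, limma adjusted p = 1.03e-10). Cmpk2, a mitochondrial nucleotide kinase, had 1225 and 1386 in AMN107-IFNg and 228 and 413 in AMN107, a 4.16-fold rise with a wide spread between the AMN107 arrays. Rsad2, or viperin, had 4589 and 4681 in AMN107-IFNg and 1424 and 1958 in AMN107. Ifit2 (2.0) and Ifit1 (1.11) rose as well, as did Ifi44l (1.88), the GTPases Mx1 (1.44) and Mx2 (0.90) and the oligoadenylate synthetase gene Oas1a (0.60). In the ISG15 conjugation list 4 of 6 tested genes rose (median 0.71): Ube2l6 (1.66) and Herc6 (1.38), its conjugating enzyme and mouse ligase, Uba7 (0.73), its activating enzyme, and Usp18. Isg15 itself had no probe set with 1 gene symbol and was not analysed here.

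In the list of RNA and DNA sensors 13 of 17 tested genes rose and 0 fell, with a median of 0.75. The list also held Tlr2, Tlr4, Nod1 and the adaptor gene Myd88. Zbp1, a sensor of Z-form nucleic acid that can start necroptosis, had 425 and 392 in AMN107-IFNg and 61.1 and 73.7 in AMN107, a 5.5-fold rise. Mndal (1.81) and Ifi204 (1.53) of the Ifi200 family and Tlr3 (1.79), the endosomal receptor for double-stranded RNA, passed 2-fold. Ifi204 varied between replicates, with 478 and 698 in AMN107-IFNg and 149 and 253 in AMN107. Cgas, the cytosolic DNA sensor, rose by 0.53 and Ifih1, the RNA helicase MDA5, by 0.37.

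Genes of cell death rose in 10 of 15 tested cases, with 0 lower and a median of 0.49. Casp4, the mouse caspase-11 gene, which senses bacterial lipopolysaccharide in the cytosol, had 141 and 138 in AMN107-IFNg and 16.9 and 17.5 in AMN107, a 5.73-fold rise. Daxx (1.26), a partner of the death receptor Fas, and Mlkl (0.87), the pore-forming effector of necroptosis, rose too. Fas itself was dim, at 22.6 and 19.5 in AMN107-IFNg and 11.7 and 13.1 in AMN107, and rose by 0.49, a call lost without AMN107-IFNg replicate 1 or AMN107 replicate 1 (limma adjusted p 0.0658 to 0.0731). Xaf1, an antagonist of the caspase inhibitor XIAP, rose by 0.91 from already high AMN107 signals of 1319 and 1550.

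Of 11 tested checkpoint and contact molecules 8 rose and 0 fell, with a median of 0.88. Cd274, or PD-L1, which restrains T cells, had 214 and 199 in AMN107-IFNg and 27 and 29.3 in AMN107, a 5.84-fold rise (log2 2.55 ± 0.09 SE, limma adjusted p = 7.76e-12). Cd40, a costimulatory receptor, had 179.9 and 130.3 in AMN107-IFNg and 49.2 and 54 in AMN107, and its other probe sets gave 1.55 and 1.45. Il15ra (1.37), which presents interleukin-15, the adhesion molecule Vcam1 (0.88), Cd47 (0.76) and Lgals9 (0.73) also rose. Of 8 tested complement and acute-phase genes (median 0.18) 2 rose and 0 fell, the C1 protease genes C1ra (1.0) and C1s1 (0.97), both near or below the median signal in AMN107.

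In the list of host defence enzymes and metabolism, which also held transporter genes, 5 of 10 tested genes rose, with a median of 0.18. Among them were Upp1 (1.29), a uridine phosphorylase, Acod1 (1.0), which makes itaconate, and Wars (0.62), a tRNA synthetase. Gch1 (0.43), which makes tetrahydrobiopterin, and Lap3 (0.30), a peptidase, completed them. Lap3 lost its call without AMN107-IFNg replicate 1 or AMN107 replicate 2 (limma adjusted p 0.109 to 0.13). Nos2, the inducible nitric oxide synthase, stood at 0.05 and was not called. Ido1 was too dim to be tested, with 19.6 and 15.8 in AMN107-IFNg and 8.99 and 6.65 in AMN107. Of 18 NF-kappaB targets 4 rose and 0 fell, against 4.81% and 2.36% of all genes, with a median of 0.05 (all genes -0.03).

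**Figure D3:**
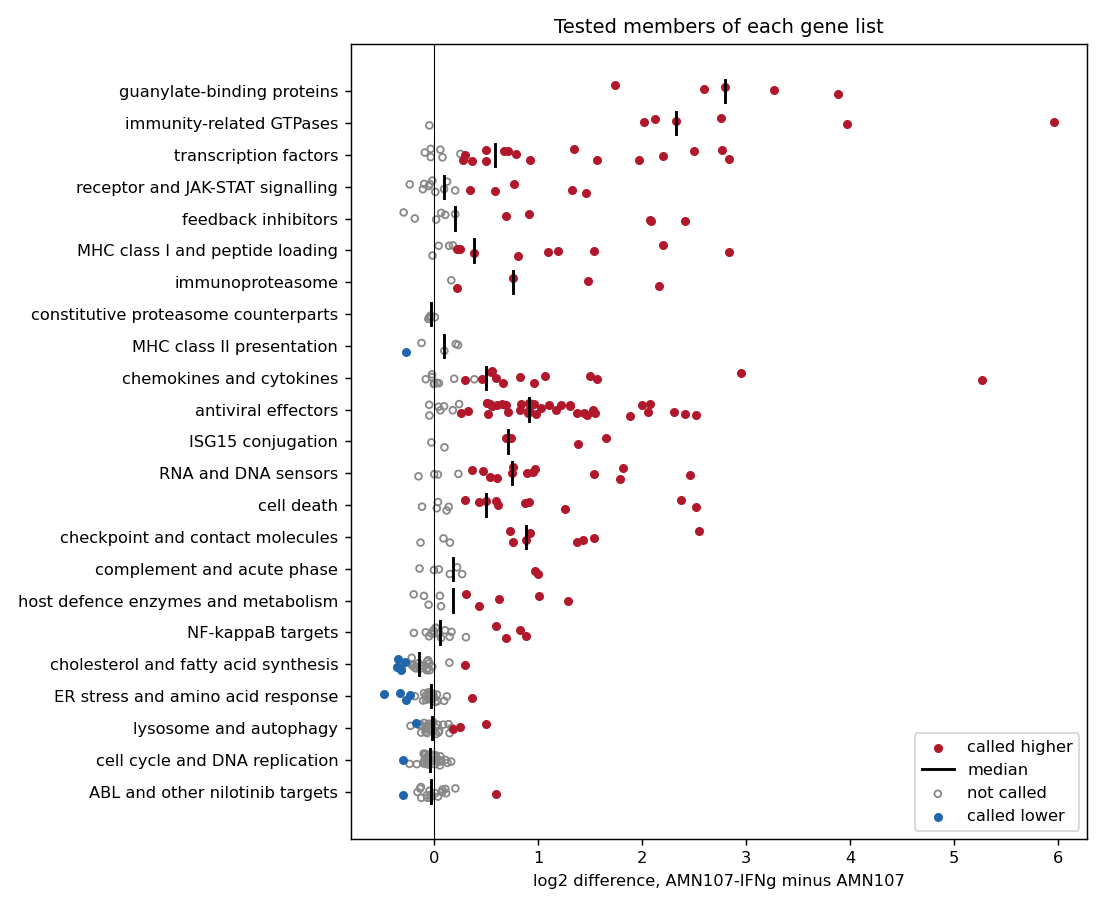
Log2 difference between AMN107-IFNg and AMN107 (horizontal axis) for each tested member of 23 gene lists (rows). Filled points were called higher (red) or lower (blue), open points were not called, and bars are list medians. The GTPase lists have medians of 2.79 and 2.32, while those of the cell cycle, of ABL and other nilotinib targets and of the standard proteasome lie near 0.

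Lists outside the interferon response are given by their counts, beside 4.81% of all genes called higher and 2.36% called lower. Of 18 genes of ABL and other nilotinib targets, Abl2 rose (0.59), the stress kinase gene Map3k20 fell (-0.30), and the median was -0.04. Abl2, the ABL1 paralogue, had 715 and 705 in AMN107-IFNg and 490.1 and 449 in AMN107. Its 2 other probe sets gave 0.30 and 0.30, neither called. Of 30 cell-cycle genes 1 fell, the mitotic activator Cdc20 (-0.31), and 0 rose. Of 16 p53 targets 2 rose and 2 fell, with a median of -0.18. The list of cholesterol and fatty acid synthesis had 1 rise, Srebf1 (0.29), and 5 falls out of 27, with a median of -0.15. The falls were Elovl6 (-0.36), Scd2 (-0.35), Lss (-0.35), Msmo1 (-0.32) and Pmvk (-0.29), enzymes of fatty acid elongation, desaturation and the sterol pathway. Other probe sets were not called: -0.13 for Elovl6, -0.42 and 0.14 for Scd2, 0.07 and -0.07 for Lss, and -0.08 for Msmo1. Each of these 6 calls was lost in at least 3 of the 4 fits that left out 1 array of AMN107-IFNg or AMN107, with limma adjusted p between 0.0523 and 0.25. Of 27 genes of ER stress and the amino acid response 4 fell, led by Sesn2 (-0.48), and 1 rose. Other probe sets of Sesn2 (-0.08) and Cdc20 (-0.10 and -0.20) were not called. The calls of Sesn2 (without AMN107-IFNg replicate 1 or either AMN107 array), Map3k20 (without AMN107-IFNg replicate 2 or AMN107 replicate 1) and Cdc20 (without AMN107-IFNg replicate 2) were lost too, with limma adjusted p between 0.0537 and 0.319. Of 28 lysosome and autophagy genes 3 rose and 1 fell, of 18 immediate-early and SRF target genes 2 rose and 1 fell, and of 26 collagen and matrix genes 1 rose and 1 fell.

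The falls were small. Plat, tissue plasminogen activator, had 128 and 135 in AMN107-IFNg and 210.1 and 224 in AMN107. This was the lowest called value, a log2 difference of -0.69 ± 0.09 SE (limma adjusted p = 4.46e-05). Ptgs2, the inducible cyclooxygenase, had 486 and 508 in AMN107-IFNg and 752 and 786 in AMN107 (-0.62), and a second probe set also gave -0.62. Neither gene's groups overlapped. H1f2, a linker histone gene, stood at -0.58, though its other probe sets (-0.33 and -0.0037) were not called. Tfb2m (-0.57), a factor of mitochondrial transcription, Ramp3 (-0.57), a co-receptor of the adrenomedullin receptor, and Fabp4 (-0.52), a fatty acid binding protein, fell too. So did Phlda2 (-0.52) and Pcolce2 (-0.50), an enhancer of procollagen processing. Lce1f (-0.62) and Nlrc3 (-0.56) did so at low signals, with 26.1 on both AMN107-IFNg arrays and 50.5 and 39.8 on the AMN107 arrays for Lce1f. The count of 288 falls shrank to 112 without AMN107-IFNg replicate 1, 62 without AMN107-IFNg replicate 2, 75 without AMN107 replicate 1 and 109 without AMN107 replicate 2.

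Of the 108 genes that rose by 2-fold or more, 64 were in a list and 44 were not, and the genes named below the 20 largest rises were picked after their values were seen. The largest of these 44 was Tubb3, the beta-tubulin known from neurons, with 692 and 572 in AMN107-IFNg and 78.5 and 86.7 in AMN107, a 7-fold rise (log2 2.81 ± 0.10 SE, limma adjusted p = 7.94e-12). Fst, or follistatin, which binds activin, had 164 and 153 in AMN107-IFNg and 22.1 and 18.3 in AMN107, and its other probe set gave 3.31. Both genes separated the groups by a wide gap, though the choice of the 20 largest rises required groups without overlap. Tmem140 (2.53) and BC023105 (2.52) completed the 20 largest rises. Clec2d (2.21), a ligand of an inhibitory natural killer cell receptor, and Mpeg1 (2.20), the pore-forming perforin-2, rose from signals between 13.5 and 28.7 in AMN107.

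Osmr (1.70), a chain of the oncostatin M receptor, Il13ra1 (1.42), a chain of the interleukin-13 receptor, and the receptor gene Notch1 (1.56), whose other probe set gave 0.75, also rose. Notch1 had 199.7 and 182 in AMN107-IFNg and 63.3 and 54.9 in AMN107. Ntn1, or netrin-1, rose by 1.40 and Slit2 by 1.03, both secreted proteins known from axon guidance. Cdc42ep2, an effector of the GTPase CDC42, rose by 2.03 and Katna1, the microtubule-severing katanin, by 1.38. Mt2, a metallothionein, had 1722 and 1678 in AMN107-IFNg and 657 and 673 in AMN107 (1.34). Ptx3 (1.69), a soluble pattern recognition protein, Bnip3 (1.63), a mitophagy receptor, Tgm2 (1.16), a transglutaminase, and Zfp36 (1.01), which destabilises messenger RNA, were also among the 44. Tgm2 had 4 other probe sets, with values between 0.21 and 0.94, of which the lowest was not called.

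Of all 108 genes, 50 had further probe sets, 79 in total. Of these, 64 were called higher, 0 lower and 15 were not called.

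Interferon-gamma was next set against interferon-alpha in cells that all had AMN107. Between AMN107-IFNg and AMN107-IFNa 427 genes (3.5%) differed, 374 (3.07%) higher and 53 (0.435%) lower in AMN107-IFNg, with 61 (0.5%) higher by at least 2-fold and 0 lower by that much. Iigp1 had 1485 and 1466 in AMN107-IFNg and 23.5 and 26 in AMN107-IFNa (log2 5.47 ± 0.08 SE). Cxcl9 (5.19), Tubb3 (2.98), Gbp2b (2.93), Cxcl11 (2.73), Batf2 (2.70), Ifi47 (2.62) and Fst (2.41) came next. Tubb3 read 73.8 and 70.6 in AMN107-IFNa, below both AMN107 arrays, and Irf8 read 18.1 and 18.6 there. Plat (-0.71) and Ptgs2 (-0.58) were lowest, and Fcgr3 (-0.50), an Fc receptor gene, was called here with 38.5 and 35.6 in AMN107-IFNg and 49.4 and 62.9 in AMN107-IFNa. Its call was lost without either AMN107-IFNg array or AMN107-IFNa replicate 2 (limma adjusted p 0.0708 to 0.217).

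For some antiviral genes the difference between the 2 interferons was not called. Usp18 had 1884 and 1688 in AMN107-IFNg and 1920 and 1898 in AMN107-IFNa, and the difference of -0.10 was not called. Irf7 (0.03), Oas1a (0.02), Ifit1 (0.22), Mx2 (-0.14) and Ifih1 (0.01) were not called either. Ifit3 was higher by 0.77 and Rsad2 by 0.43 in AMN107-IFNg, the second call lost without either AMN107-IFNg array or AMN107-IFNa replicate 1 (limma adjusted p 0.169 to 0.335). The contrast of AMN107-IFNa with AMN107, which uses the same AMN107 arrays, called 125 genes (1.03%), 116 of them higher (0.952%) and 9 by 2-fold or more (0.0738%). In it Ifit3 stood at 1.75, Ifi47 at 1.35 and Gbp2b at 0.95, against 2.51, 3.97 and 3.88 for interferon-gamma. Without 1 array the count of 427 fell to 267 (AMN107-IFNg replicate 1), 260 (AMN107-IFNg replicate 2) and 280 (AMN107-IFNa replicate 1), and with all 12 arrays to 171.

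The same stimulus without the inhibitor was read from the IFNg and DMSO arrays, which are separate from the 4 arrays above. The DMSO arrays stood apart in several technical measures. Their actin 5′ to 3′ ratios were 0.676 and 0.712, against 0.791 to 0.830 on the other 8 arrays of the fit. The spiked LysX control read 59.6 and 66.2 on them, against 36.1 to 41.4 elsewhere, and their trimmed mean signals were 100.4 and 101.3, against 105 to 110.8. Every contrast below that uses DMSO carries these differences, whose part in the results was not tested.

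Between IFNg and DMSO 3730 genes (30.6%) were called, 16.2% higher and 14.4% lower, and 157 (1.29%) rose by at least 2-fold. Of the 108 genes that rose by 2-fold or more with AMN107, 105 were called higher without it, against 16.2% of all genes, and 83 did so by 2-fold or more. These 83 make up 76.9% of the 108 and 52.9% of the 157. Over all 12188 genes the log2 differences with and without AMN107 had a Pearson r of 0.627, given as a description across genes, which are not independent replicates. The 3 genes of the 108 that were not called without AMN107 were Ifi44l, Mx1 and Gm11772, each with a positive interaction in the test described next. Of the 157 genes, 125 were called higher with AMN107, and 32 were not called, among them Klf6, Sntb2, Ankrd1 and H2-K1.

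The difference between the 2 responses was tested as an interaction, the AMN107-IFNg minus AMN107 difference less the IFNg minus DMSO difference. It was called for 1580 genes (13%), positive for 441 (3.62%) and negative for 1139 (9.35%). By at least 2-fold it was positive for 7 genes (0.0574%) and negative for 68 (0.558%). The DMSO arrays enter this difference with a plus sign, so a choice of negative interactions favours genes with low DMSO signals. Both DMSO arrays lay below the other 8 arrays of the fit for 982 of the 1139 (86.2%), against 18.2% of all genes. This held for 65 of the 68 past 2-fold. For 197 of the 441 positive genes (44.7%) both lay above the other 8, against 17.4% of all genes. Of the 1139, 995 were not called between AMN107-IFNg and AMN107. With all 12 arrays in the fit, 125 interactions were called. Leaving out DMSO replicate 1 gave 993, AMN107-IFNg replicate 2 gave 928 and AMN107 replicate 2 gave 1007. Quantile normalization gave 992 positive and 918 negative interactions, so the balance of directions depended on the scaling.

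The GTPases had the most negative interactions. For Gbp2 the response was 9.62-fold with AMN107, and its signals without it were 2224 and 2286 in IFNg and 22.5 and 23.6 in DMSO. The interaction was -2.89 on the log2 scale, with -2.55 in the other probe set. Its level after interferon-gamma was close in both settings (AMN107-IFNg minus IFNg 0.07, limma adjusted p = 0.648), while AMN107 cells exceeded DMSO cells by 2.96 before it. Igtp showed the same arrangement, with 3399 and 3238 in IFNg and 83.3 and 78 in DMSO, an interaction of -2.46 and an AMN107-IFNg minus IFNg difference of -0.03 (limma adjusted p = 0.766). Gbp7 (-2.46), Gbp2b (-2.24), Irgm2 (-2.23) and Gbp3 (-2.07) followed. All 5 tested guanylate-binding proteins had a negative interaction (median -2.24), against 9.35% of all genes.

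Gbp6 and Iigp1 differed from the others in where the groups parted. Gbp6 had 16.6 and 16.5 in AMN107 and 13.8 and 12.6 in DMSO, so it was dim in both without interferon. After interferon-gamma it had 146 and 143 in AMN107-IFNg and 225 and 212 in IFNg, a difference of -0.57 (limma adjusted p = 0.000114). Iigp1 had 1485 and 1466 in AMN107-IFNg and 2712 and 2670 in IFNg. BC023105 (107 and 87.3 in AMN107-IFNg, 285 and 379 in IFNg) and Irf8 (105 and 107 in AMN107-IFNg, 212 and 216 in IFNg) were also lower with the inhibitor.

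**Figure D4:**
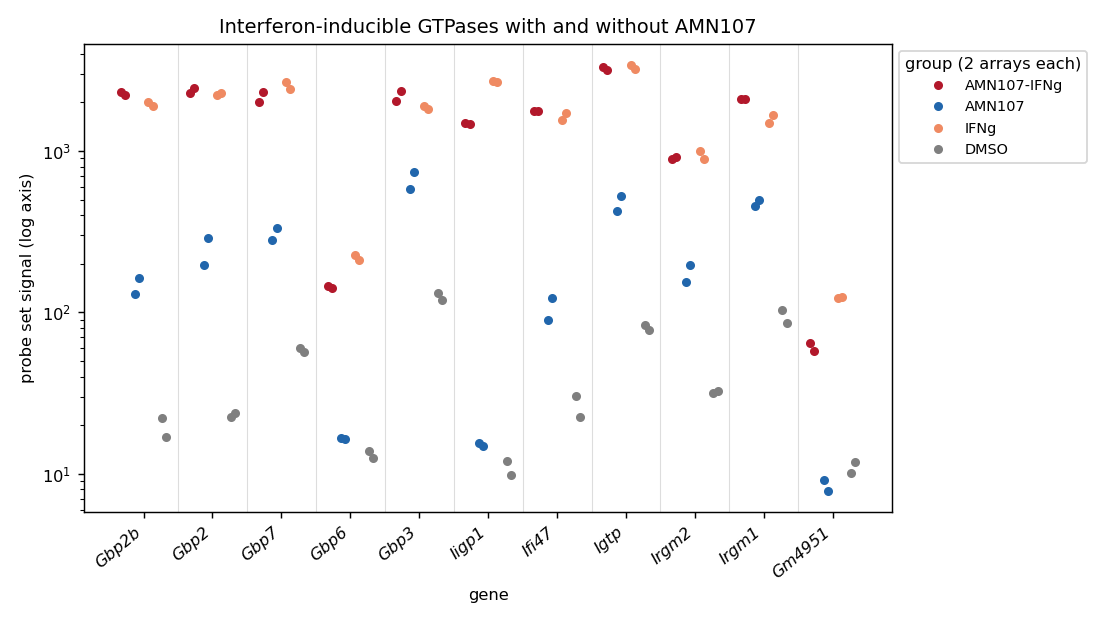
Probe set signal (log axis) of the 11 guanylate-binding proteins and immunity-related GTPases that rose with AMN107, in 4 groups of 2 arrays: AMN107-IFNg, AMN107, IFNg and DMSO from left to right within each gene. For most genes the interferon-treated arrays lie close together and the AMN107 arrays above the DMSO arrays, as for Gbp2 (197 and 289 in AMN107, 22.5 and 23.6 in DMSO).

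Across the 108 genes the interaction was negative for 29, positive for 28 and not called for 51. These counts describe genes chosen from 4 of the same arrays, and are given without a test. Of the 29 negative genes, 23 were called higher in AMN107 than in DMSO, and 10 were higher and 8 lower in AMN107-IFNg than in IFNg. Of the 28 positive genes, 25 were higher in AMN107-IFNg than in IFNg. Among all 108, 71 were higher in AMN107 than in DMSO, and 68 were higher in AMN107-IFNg than in IFNg. The interaction is made from these same groups, so a choice by its sign favours such differences. Over all genes, 55% differed between AMN107 and DMSO, 32.2% being higher in AMN107 and 2.19% higher by 2-fold or more. Between AMN107-IFNg and IFNg 40.4% differed, 25.9% being higher and 14.5% lower in AMN107-IFNg, with 1.08% higher by 2-fold or more.

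Of 43 tested antiviral effectors 6 had a positive and 12 a negative interaction, against 3.62% and 9.35% of all genes, with a median of 0.02. Xaf1, among the 12, had an interaction between -1.77 and -1.52 over the fits run, and -2.15 in another probe set. The highest interaction was that of Ifi44l. Ifi44l had 82.5 and 57.3 in AMN107-IFNg and 11.7 and 13.2 in AMN107, against 11 and 12.1 in IFNg and 8.9 and 7.92 in DMSO. Its interaction was 1.64 ± 0.17 SE (limma adjusted p = 1.44e-05), with 1.45 in a second probe set. Mx1 had 70.3 and 53.4 in AMN107-IFNg and 16.3 and 17.9 in AMN107, against 9.06 and 14.5 in IFNg and 11.4 and 14.5 in DMSO, with an interaction of 1.53. In both genes the AMN107-IFNg arrays stood alone above the other 6. Phf11d (1.47) followed, with 234 and 392 in AMN107-IFNg. Cxcl9 (1.42) had 283 and 224 in IFNg, and its DMSO signals of 8.88 and 9.93 were as dim as those of AMN107. Gm11772 (1.12), Crem (1.07), a cyclic AMP responsive repressor and activator gene, and Casp4 (1.03) completed the 7 genes past 2-fold, and Eppk1 (0.99), a plakin cytolinker gene, came next.

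Klf6 and Sntb2 were high with AMN107 whether or not interferon-gamma was given. Klf6, a zinc-finger factor, had 761 and 777 in AMN107-IFNg and 743 and 741 in AMN107, against 572 and 558 in IFNg and 120.3 and 181 in DMSO (interaction -1.82). Sntb2, a syntrophin, had 165 and 155 in AMN107-IFNg and 167 and 188 in AMN107, against 213 and 192 in IFNg and 48.3 and 61.5 in DMSO (interaction -1.88). The DMSO arrays were the low ones in both. Of the other probe sets, -1.64 for Klf6 and -0.62 for Sntb2 were called. Those at -0.12 and -0.26 for Klf6 and at -0.30 and -0.40 for Sntb2 were not called.

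For several genes the interaction was not called, which leaves differences of the size of its error undetected. Nlrc5 had an interaction of -0.05 ± 0.12 SE, Cdc42ep2 of 0.02 ± 0.13 SE, Cxcl10 of -0.15 ± 0.10 SE and Batf2 of 0.27 ± 0.15 SE. Irf1, by contrast, was called at -0.39, a call lost in 5 of the 8 fits without 1 array (limma adjusted p 0.0587 to 0.11), with 1610 and 1478 in IFNg and 184 and 218 in DMSO, and Cd274 at 0.62, with 127 and 126 in IFNg and 30.3 and 23.7 in DMSO. Socs3 was called at 0.66, while its other probe sets gave 0.19 and 0.72 and were not called (limma adjusted p = 0.359 and 0.0578). Its signals without interferon were 55.3 and 56.7 in AMN107 and 98.8 and 99.9 in DMSO, and after interferon-gamma 247 and 286 in AMN107-IFNg and 257 and 309 in IFNg.

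**Figure D5:**
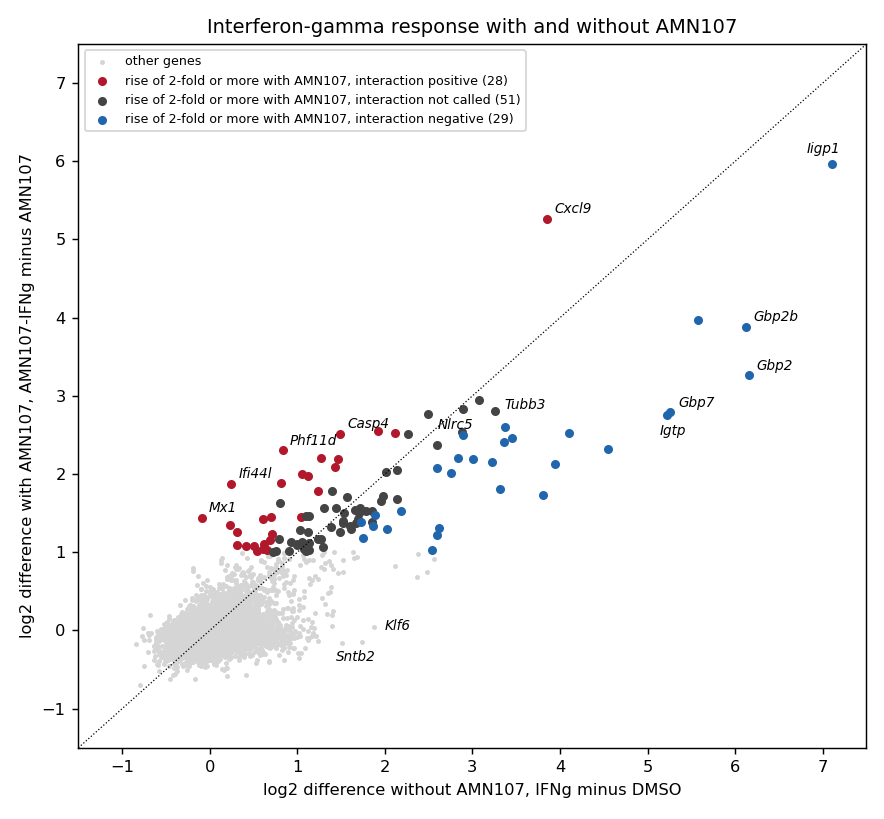
Log2 difference with AMN107 (AMN107-IFNg minus AMN107, vertical axis) against that without it (IFNg minus DMSO, horizontal axis) for 12188 genes. Coloured points are the 108 genes that rose by 2-fold or more with AMN107, by the sign of their interaction: 28 positive (red), 51 not called (dark grey) and 29 negative (blue), and the dotted line marks equal differences.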

How the data were processed

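Mouse embryonic fibroblasts were profiled on 12 Affymetrix arrays, 2 in each of 6 groups, taken from the sample titles. The deposited table held 45101 probe sets with 1 linear signal intensity per array, made by the authors with MAS5 per the submitters' processing notes. The scaling and version of that step are not given in the sources used here. Control probe sets (64), those with several genes (932) and those with none (9160) were left out, which left 34945. Names came from the platform annotation.

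Signals were analysed as log2(signal + 8.663), the constant being the 25th percentile of all signals. Probe sets above the array median on at least 2 of 12 arrays were kept (24353, of which 21244 had 1 gene), and the brightest stood for each of 12188 genes. limma 3.58.1 in R 4.3.3 (lmFit, eBayes with trend) was fitted to 10 arrays. The IFNa arrays were left out because 1 of them had a Gapdh 5′ to 3′ ratio of 0.0252. Benjamini-Hochberg adjustment covered all tested genes, with a threshold of 0.05 and a 2-fold line. Array medians lay between 20.6 and 22.8, and 2 arrays a group limit the precision. No detection calls were used here. The fit of AMN107-IFNg against AMN107 was tested on simulated data with known changes in AMN107-IFNg. That simulation held no shift of whole arrays and no interaction, so it does not bear on the contrasts with DMSO.

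Named genes were the 20 largest rises and 10 largest falls among called genes whose groups did not overlap, and list members. For the other contrasts they were the 8 largest called in each direction. Against AMN107-IFNa these too had to be without overlap. The members and lists were chosen with earlier results of these data known. Genes outside this rule were chosen after their values were seen. Replicate numbers were not used to pair the samples in the main fit. Alternatives were other constants, filters and normalizations, other sets of arrays, all probe sets, array weights and a replicate block. Python 3.11.15, pandas 2.3.3 and matplotlib 3.10.9 made the summaries and figures.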

Additional observations from a re-analysis of the deposited data

Results flagged for a closer look

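The interaction was called for 1580 genes (limma, Benjamini-Hochberg adjustment over 12188 genes). In these, the AMN107-IFNg minus AMN107 difference was unlike the IFNg minus DMSO difference. The 8 most positive interactions, in log2 units, were those of Ifi44l (1.64), Mx1 (1.53), Phf11d (1.47), Cxcl9 (1.42), Gm11772 (1.12), Crem (1.07), Casp4 (1.03) and Eppk1 (0.99). The 8 most negative were those of Gbp2 (-2.89), Igtp (-2.46), Gbp7 (-2.46), Gbp2b (-2.24), Irgm2 (-2.23), Gbp3 (-2.07), Sntb2 (-1.88) and Klf6 (-1.82). The DMSO arrays entered each of these values and stood apart in actin 5′ to 3′ ratio, in the spiked LysX control and in trimmed mean signal. The part of those measures in the interactions was not tested. Both DMSO arrays lay below the other 8 arrays of the fit for 982 of the 1139 negative interactions, against 18.2% of all genes. Some other probe sets of Sntb2 and Klf6 were not called.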

How the results depend on the processing

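The count of genes differing between AMN107-IFNg and AMN107 was 874, 316 with all 12 arrays, 1331 with the 4 arrays alone and between 478 and 572 with 1 array left out. Rises of 2-fold or more numbered between 86 (larger added constant) and 159 (every probe set) over the alternatives run. Array weights gave 714 rises and 540 falls, and the 4 arrays alone 750 and 581, in place of 586 and 288. The count of interactions was 1580, 125 with all 12 arrays, 3001 with every probe set and between 928 and 1570 with 1 array left out. Interactions of 2-fold or more numbered 75, 41 with all 12 arrays, 48 with the larger constant and 357 with every probe set. The counts given for every probe set are of 21244 probe sets, several for some genes. They cannot be set directly against counts of 12188 genes. Quantile normalization gave 992 positive and 918 negative interactions in place of 441 and 1139. Between AMN107-IFNg and AMN107-IFNa 427 genes differed, 171 with all 12 arrays and between 260 and 387 with 1 array left out. The interaction of Trim30a changed sign with the larger constant, to 0.0023, a value that was not called. The added constant set the size of differences that start from dim signals: Cxcl9 gave 3.89 with the larger constant and 6.27 with a constant of 1, and Iigp1 4.92 and 6.52. The cause of the other changes was not tested.

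Of 124 named genes called between AMN107-IFNg and AMN107, 99 kept the call under every alternative run, 24 lost it with all 12 arrays and 15 when 1 array was left out. With the replicate number as a block, 846 genes were called (interaction 1542, AMN107-IFNg against AMN107-IFNa 423), and of the named calls only the interactions of Ifngr2 and Tmem140 were lost. Deviations of same-numbered arrays correlated between -0.14 and 0.31 over 10 pairs of groups, 2 of them above 0.1. The highest was that of AMN107 with AMN107-IFNa. With 2 arrays a group, such values cannot show whether same-numbered arrays shared a batch or a culture, and the labels do not say. Signals over background could not be judged for single probe sets, since no detection call was used, and 2 arrays a group limit what small differences can show.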
